A study of Mus musculus with 49 samples.

Results

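The enzymes that make serine and glycine and that carry their carbon on folate were followed by RNA-seq in mouse splenic CD8+ T cells cultured with IL-2. The 10 genes were Phgdh, Psat1, Psph, Shmt1, Shmt2, Mthfd1, Mthfd1l, Mthfd2, Gldc, and Cbs. They were chosen by symbol from the 23992 gene symbols in the files, each by its longest transcript. Gldc and Cbs entered the list because their mRNAs were among the most lowered in KI cells at 48 hr, so no member was tested at 48 hr and those values are given as a description.

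Cells came from mice of 2 lines on the C57BL/6J background. In Stat5a KI mice the tyrosine that activates STAT5A when phosphorylated was replaced by phenylalanine, and Stat5b KI mice carried the corresponding change in STAT5B. The KI mice were homozygous, the change was carried in the germline and hence in every cell, and WT littermates were the controls of each line. CD8+ T cells were purified from spleen by negative isolation and collected at 0 hr or after 4, 24, or 48 hr with 500 IU/ml of recombinant human IL-2. Each of the 16 groups had 3 libraries, except Stat5a KI at 4 hr, in which replicate 3 was left out and 2 remained, so that 47 of 48 libraries were used. The library left out held 1028515 reads on the longest transcripts, 5.675% of its mapped reads. The labels do not say whether libraries came from separate mice, so the p-values measure the spread between these libraries, which may be technical.

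The 47 libraries held 17369112 to 60200653 reads on these transcripts (median 41410666). A floor of 3 reads corresponded to 0.0498 to 0.173 CPM, the count scaled to a common library size, which covers counting error only. In 1 library, replicate 2 of the 4 hr WT cells in the Stat5a line, 44.86% of the mapped reads lay on the longest transcripts, against a median of 75.29%, and results at 4 hr in that line are therefore given with and without it. The CD8 T cell markers were present, with Thy1 the most abundant of the 6, whereas Alb and Ttr of the 3 hepatocyte markers were at or under the floor in every library.

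Serine is made from a glycolytic intermediate in 3 steps, and serine hydroxymethyltransferases then move its side-chain carbon to tetrahydrofolate, leaving glycine. Folate-bound carbon is used to build purines and thymidylate and to remethylate homocysteine. Dividing T cells are known to draw on this pathway, in the cytosol and in mitochondria, when they make DNA.

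The promoters of the serine hydroxymethyltransferases are shown because Shmt1 and Shmt2 catalyze the same reaction and differed in the size of their change with IL-2. Shmt1, which encodes the cytosolic enzyme, starts on the minus strand of chromosome 11, and the 250 bases before its start lie at chr11:60811266-60811515 of GRCm38.p6, the build that corresponds to mm10. Shmt2, which encodes the mitochondrial enzyme, starts on the minus strand of chromosome 10, and its 250 bases lie at chr10:127522445-127522694. Both are RefSeq sequences on the strand of the gene, written 5′ to 3′, and capitals mark a match to TTCNNNGAA, the form of the GAS motif that STAT proteins bind.
Shmt1: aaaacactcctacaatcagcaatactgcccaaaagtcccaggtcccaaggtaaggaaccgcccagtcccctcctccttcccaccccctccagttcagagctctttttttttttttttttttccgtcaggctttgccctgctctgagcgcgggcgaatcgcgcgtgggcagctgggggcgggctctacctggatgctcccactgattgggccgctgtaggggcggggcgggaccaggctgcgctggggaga
Shmt2: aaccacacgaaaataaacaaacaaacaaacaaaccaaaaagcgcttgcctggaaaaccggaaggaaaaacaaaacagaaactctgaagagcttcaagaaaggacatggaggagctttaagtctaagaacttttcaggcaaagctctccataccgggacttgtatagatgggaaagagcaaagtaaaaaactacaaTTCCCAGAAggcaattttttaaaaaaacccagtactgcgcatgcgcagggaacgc
All 10 genes had promoter windows, 11 in all because Psat1 has 2. In windows of 300 bases, from 250 before to 50 after the start, TTCNNNGAA occurred on either strand in Shmt2 and in no other member, and in 8.3% of 32851 promoters. CACGTG, the E-box, occurred in Cbs and in no other member, and in 7.15% of all promoters. TGATGNAA, the element bound by C/EBP and ATF proteins, occurred in none of the 11 windows and in 3.97% of all promoters. The matches describe letters in these windows and were not tested as binding sites.

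Before IL-2, mRNAs for 8 of the 10 enzymes were present in WT and KI cells of each line with none called between them, and by 24 hr 6 of the 8 had risen at least 2-fold in WT cells. Levels are given in RPKM, reads scaled to transcript length and to the mapped reads of the library, so that genes can be compared per length. The enzymes of serine synthesis rose as follows. Phgdh, which encodes the first enzyme of the route, stood at 27.4, 26.4, and 29.2 RPKM in Stat5a line WT cells at 0 hr and at 78.9, 83.0, and 80.8 RPKM at 24 hr. In Stat5b line WT cells, Phgdh went from 26.9, 31.4, and 28.7 RPKM to 92.4, 106.97, and 102.1 RPKM. No library at 24 hr overlapped those at 0 hr, and the log2 fold change was 1.38 (SE 0.145) and 1.61 (SE 0.145) in the respective lines. Psat1, the aminotransferase of the second step, rose by log2 fold changes of 1.91 (SE 0.125) and 2.16 (SE 0.126). Psph, the phosphatase that releases serine, had smaller log2 fold changes of 0.63 and 0.75, which passed on p but not at 2-fold.

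Among the folate enzymes, Shmt1 had the largest log2 fold change at 24 hr. Shmt1 was at 2.92, 2.99, and 3.19 RPKM at 0 hr and at 17.8, 19.0, and 19.8 RPKM at 24 hr in Stat5a line WT cells. In Stat5b line WT cells it was at 2.96, 3.31, and 3.56 RPKM at 0 hr and at 24.3, 27.7, and 22.2 RPKM at 24 hr. The groups were far apart in both lines, with log2 fold changes of 2.46 (SE 0.144) and 2.73 (SE 0.145). Shmt2 started from a higher level per length, 27.9, 27.5, and 30.2 RPKM in the Stat5a line, and reached 79.7, 79.3, and 76.1 RPKM. Mthfd1, the cytosolic enzyme with 3 activities that interconverts folate-bound carbon, rose by 1.57 and 1.71 on the log2 scale. Mthfd2, its mitochondrial counterpart for the oxidizing steps, rose by 1.22 and 1.51, and Mthfd1l, the mitochondrial enzyme that releases formate, had log2 fold changes of 0.82 and 0.94 that did not reach 2-fold.

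A call required a fold change of 2 or more and a p, adjusted over 15566 genes by Benjamini-Hochberg, of 0.05 or less in edgeR's quasi-likelihood test. At 24 hr 6 of 10 members were called higher in Stat5a line WT cells, where 8.72% of all genes tested were called higher. The same 6 were called higher in Stat5b line WT cells, where 9.07% of all genes were. On p alone 8 of 10 were higher in both lines, where 30.1% and 29.5% of all genes were. The largest adjusted p among the 8 in edgeR's test was 9.07e-06 for the Stat5a line and 4.19e-07 for the Stat5b line. Markers moved with this rise. Of 11 genes of dividing cells 10 were called higher in WT cells of each line, with median log2 fold changes of 1.81 and 2.03. Called lower in each line were 5 of 6 B cell markers and 4 of 4 of neutrophils and monocytes, and 5 of 7 macrophage markers were in the Stat5a and 6 of 7 in the Stat5b line, where 14.2% and 13.5% of all genes were called lower. Their part in the rise was not tested.

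**Figure D1:**
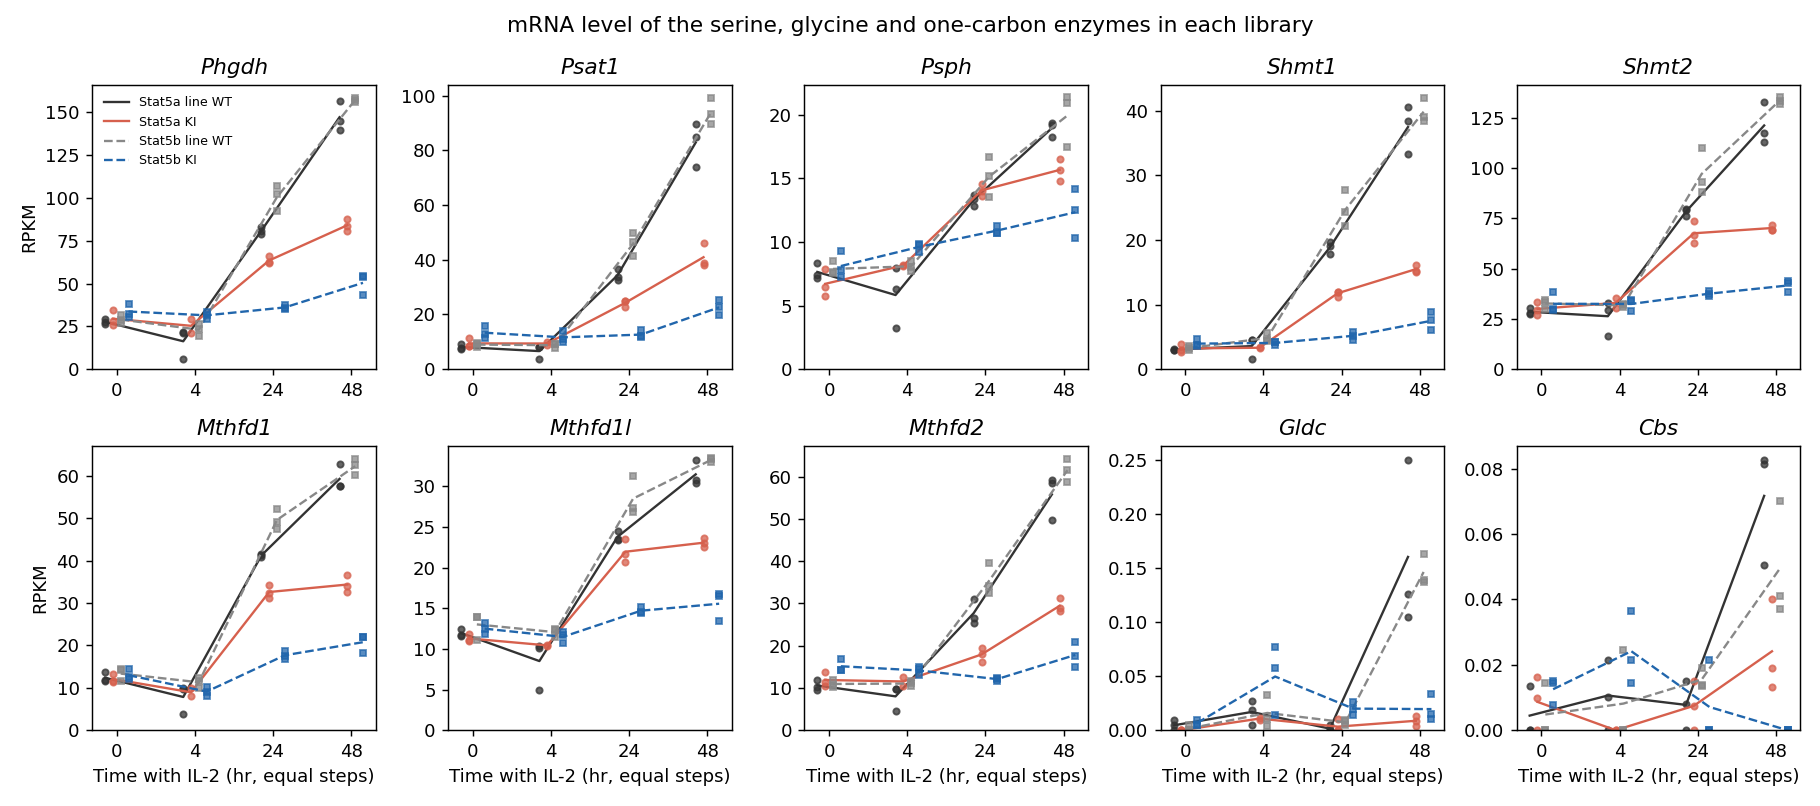
RPKM of each of the 10 genes (y axis, a scale of its own for each gene) at 0, 4, 24, and 48 hr with IL-2 (x axis, equal steps), with 1 point per library and lines through the group means. The WT lines of both mouse lines climb steeply after 4 hr for 8 genes. Stat5a KI cells climb less, except for Psph up to 24 hr. Stat5b KI cells stay near their level at 0 hr until 24 hr, and Gldc and Cbs stay under 0.3 RPKM.

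Most of the rise came after 4 hr. At that time none of the 10 members was called in Stat5a line WT cells, where 21.4% of all genes were, and 6 were lower on p alone, with 28.9% of all genes lower by that rule. Phgdh was at 21.4, 6.23, and 21.3 RPKM at 4 hr in Stat5a line WT cells, all below the 0 hr libraries, with the low value in the library of low transcript share. With that library left out, the log2 fold change of Phgdh was -0.55 in place of -0.81, with an adjusted p of 2.71e-05 in edgeR's test. Psat1 no longer passed without it (adjusted p = 0.182 in edgeR's test), nor without replicate 1 or 3 at 4 hr or replicate 3 at 0 hr, and Shmt1 then passed on p alone with a log2 fold change of 0.40. In Stat5b line WT cells none of the 8 enzymes was called at 4 hr, where 15.7% of all genes were, and 5 passed on p alone, where 49.5% of all genes passed. Shmt1 was already higher (log2 fold change 0.39, adjusted p = 0.021 in edgeR's test), though not without replicate 1 at 0 hr or replicate 2 at 4 hr, and Shmt2, Mthfd1, Mthfd1l, and Phgdh were lower. Shmt2 (adjusted p = 0.0402 in edgeR's test) passed in 1 of the 6 fits that left out a library, the one without replicate 1 at 0 hr, and Mthfd1, Mthfd1l, and Phgdh passed in all 6. Gldc had 1, 7, and 2 reads at 4 hr and 1, 0, and 0 reads at 0 hr, so the groups met at a count of 1. It was called higher (log2 fold change 2.78, adjusted p = 0.0448 in edgeR's test) on counts near the floor, and without replicate 2 at 4 hr the adjusted p in edgeR's test was 0.327. The call was also lost without replicate 2 or 3 at 0 hr, with adjusted p of 0.134 and 0.132 in edgeR's test.

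At 0 hr no member was called between KI and WT cells in either line, with 1.04% of all genes called for the Stat5a and 7.98% for the Stat5b line by edgeR. At p alone, 0 of 10 passed for the Stat5a line, where 3.44% of all genes did, and 2 of 10 for the Stat5b line, where 22.9% did. Those 2 were higher in Stat5b KI cells, and Mthfd1l was added as lower without replicate 1 of the WT cells. Mthfd2 was at 14.3, 16.8, and 14.4 RPKM in Stat5b KI cells and at 10.1, 10.8, and 11.9 RPKM in WT cells, without overlap (log2 fold change 0.41, adjusted p = 0.00551 in edgeR's test). Psat1 was at 11.5, 15.7, and 12.8 RPKM against 8.08, 9.7, and 9.21 RPKM, also without overlap (log2 fold change 0.51, adjusted p = 0.00252 in edgeR's test). Markers of other cells were higher in the same Stat5b KI libraries, where 7.38% of all genes were called higher. The B cell markers had 6 of 6 called higher, with sums of 202.8, 209.3, and 207.4 RPKM against 50.7, 49.2, and 57.7 RPKM in WT cells. The erythroid markers had 5 of 5 called higher, those of neutrophils and monocytes 4 of 4, those of macrophages 6 of 7, and those of dividing cells 3 of 11. Their part in the values of Mthfd2 and Psat1 was not tested. At 4 hr no member was called in either line, with 6.63% and 10.4% of all genes called in the Stat5a and Stat5b lines. At p alone 24.6% of all genes passed for the Stat5a and 27.3% for the Stat5b line. Phgdh passed in the Stat5a line (log2 fold change 0.43, adjusted p = 0.0453 in edgeR's test) and no longer did without the library of low transcript share (adjusted p = 0.343 in edgeR's test), where Shmt1 passed instead with a log2 fold change of -0.53. Mthfd1 passed at p alone in the Stat5b line, with a log2 fold change of -0.42, and still did with any 1 of the 6 libraries left out. Without replicate 1 or replicate 3 of the KI cells Psat1 was added as higher. Gldc was added as higher without replicate 1 of the KI cells or without replicate 2 of the WT cells. Its counts overlapped, with 3, 16, and 12 reads in KI cells and 1, 7, and 2 reads in WT cells. Gldc passed the filter on low counts partly through these KI libraries, so no conclusion is drawn from its passing here. Without replicate 3 of the WT cells Phgdh was added as higher and Shmt1 as lower. In the Stat5a line no member passed without replicate 1 of the KI cells, and Psph was added as higher without replicate 3 of the WT cells.

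At 24 hr KI cells held less mRNA of most of these enzymes than WT cells, by a little in the Stat5a line and by more than 2-fold for most in the Stat5b line. Shmt1 was at 12.02, 12.03, and 11.2 RPKM in Stat5a KI cells, all below the 17.8 to 19.8 RPKM of their WT controls. In Stat5b KI cells Shmt1 was at 4.56, 5.74, and 5.21 RPKM, against 24.3, 27.7, and 22.2 RPKM in WT cells. The groups did not overlap in either line, and the log2 fold change was -0.75 (SE 0.135, adjusted p = 0.000168) for the Stat5a KI cells and -2.28 (SE 0.142, adjusted p = 2.4e-15) for the Stat5b KI cells by edgeR.

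Psat1 and Mthfd2 followed Shmt1 most closely in the Stat5a line. Psat1 was at 25.1, 25.0, and 22.8 RPKM in Stat5a KI cells and at 32.5, 36.7, and 33.8 RPKM in WT cells. It was at 11.98, 14.2, and 11.8 RPKM in Stat5b KI cells and at 41.3, 49.8, and 46.6 RPKM in WT cells. Neither pair of groups overlapped, and the log2 fold changes were -0.56 (SE 0.12) and -1.88 (SE 0.124). Mthfd2 was at 19.5, 18.1, and 16.2 RPKM in Stat5a KI cells and at 25.3, 26.7, and 31.1 RPKM in WT cells. It was in the Stat5b line at 11.7, 12.4, and 12.2 RPKM in KI cells and at 32.4, 39.7, and 34.2 RPKM in WT cells. KI libraries were the lower ones throughout, with log2 fold changes of -0.69 (SE 0.107) and -1.58 (SE 0.109).

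Phgdh and Shmt2, the most abundant of the enzymes, were also lower in Stat5b than in Stat5a KI cells. Phgdh was at 62.9, 65.8, and 61.8 RPKM in Stat5a KI cells and at 35.3, 37.2, and 35.7 RPKM in Stat5b KI cells. Shmt2 was at 62.5, 73.6, and 66.6 RPKM in Stat5a KI cells and at 36.4, 38.9, and 37.4 RPKM in Stat5b KI cells, with 93.0, 110.02, and 88.2 RPKM in the WT cells of the Stat5b line. Against their own WT cells the log2 fold changes of Phgdh were -0.41 and -1.51, and those of Shmt2 were -0.28 and -1.40. Mthfd1 had log2 fold changes of -0.40 and -1.51, and Mthfd1l of -0.18 and -0.98. Psph was the least changed of the 8, with 14.03, 14.6, and 13.6 RPKM in Stat5a KI cells against 13.4, 13.7, and 12.8 RPKM in WT cells. In Stat5b KI cells Psph was at 11.3, 10.7, and 10.7 RPKM, below the 13.5, 15.2, and 16.7 RPKM of WT cells, with a log2 fold change of -0.50.

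In the Stat5a line 0 of 10 members were called at 24 hr and 6 were lower on p alone, where 4.45% of all genes were called and 9.01% were lower on p alone. The count on p alone was 4 to 6 with 1 library left out. Phgdh passed only without replicate 1 of the WT cells, Shmt2 was lost without replicate 2 of the WT cells and without replicate 1 or 3 of the KI cells, and Shmt1, Mthfd1, Mthfd2, and Psat1 passed in all 6 of these fits. In the Stat5b line 6 of 10 were called lower, where 5.77% of all genes were called lower, and 8 were lower on p alone, where 26.3% were. The median log2 fold change of the 8 enzymes was -0.41 for the Stat5a and -1.51 for the Stat5b line, beside medians of 0.01 and 0.07 over all genes tested. In bulk RNA, fewer cells that express a gene and less RNA of it per cell cannot be told apart.

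**Figure D2:**
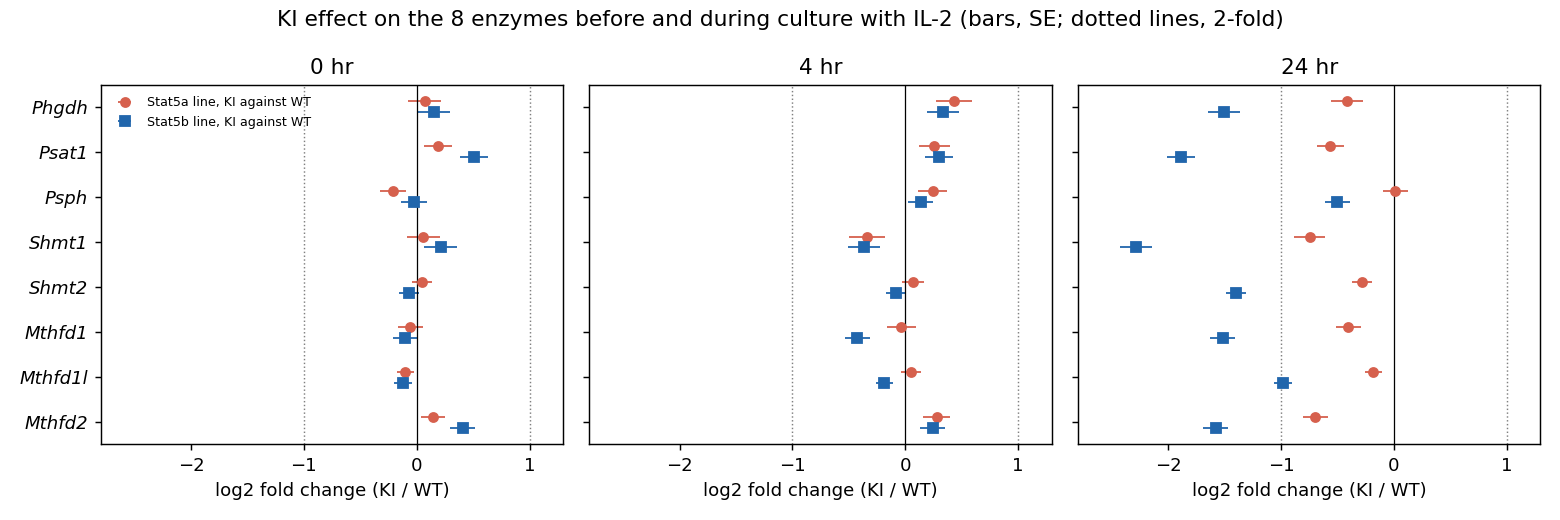
Log2 fold change of KI against WT cells (x axis) for 8 enzymes (y axis) at 0, 4, and 24 hr, with circles for the Stat5a line, squares for the Stat5b line, bars for the SE of the fit, and dotted lines at 2-fold. All values at 0 and 4 hr lie between the dotted lines, and at 24 hr 6 squares lie beyond -1 while all 8 circles lie above it.

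The KI effect at 24 hr differed between the lines in a test of the difference itself. The log2 difference of the effects, Stat5b line minus Stat5a line, was -1.54 (SE 0.192) for Shmt1 and -1.32 (SE 0.17) for Psat1. It was -1.12 for Shmt2, -1.11 for Mthfd1, and -1.09 for Phgdh. These 5 of 10 members were called, where 1.27% of all genes were called lower in this comparison. Mthfd2 (-0.88), Mthfd1l (-0.80), and Psph (-0.51) passed on p alone, which makes 8 of 10, where 11.4% of all genes were lower on p alone. The largest adjusted p of the 8 was 0.024 in edgeR's test, for Psph. Psph no longer passed without Stat5a line WT replicate 3 or KI replicate 2, nor without Stat5b line WT replicate 2 or 3 or KI replicate 3, and the other 7 passed in each of the 12 fits. Markers differed between the lines too. Of the 11 genes of dividing cells 5 were called lower by the same test and 10 were lower on p alone, with a median of -0.95, and 3 of 5 erythroid markers were called higher, where 1.39% of all genes were. Their part in the difference was not tested.

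The same values can be read as the rise from 0 to 24 hr that KI cells retained. In mean RPKM, Shmt1 rose by 15.8 RPKM in WT and 8.55 RPKM in KI cells of the Stat5a line, which is 54% of the WT rise. In the Stat5b line it rose by 21.5 RPKM in WT and 1.21 RPKM in KI cells, which is 5.66%. The Stat5a KI rise was smallest for Mthfd2, at 35.3% of the WT rise, and largest for Psph, at 130%. In Stat5b KI cells Phgdh kept 3.33% of the WT rise, Shmt2 kept 7.82%, Mthfd1 kept 13%, Mthfd1l kept 14.3%, and Psph kept 38.4%. Mthfd2 and Psat1 stood lower at 24 hr than at 0 hr in mean RPKM of Stat5b KI cells, by 3.04 RPKM for Mthfd2 and by 0.683 RPKM for Psat1. The Psat1 libraries overlapped, at 11.5, 15.7, and 12.8 RPKM at 0 hr and 11.98, 14.2, and 11.8 RPKM at 24 hr. The small shares depend on the scaling. From the fitted fold changes, which use TMM in place of mapped reads, the share in Stat5b KI cells was -1.97% for Phgdh, which turns to a fall, 2.37% for Shmt2, 3.63% for Shmt1, 5.83% for Mthfd1l, 9.31% for Mthfd1, and 30.1% for Psph. Mthfd2 had a share of -20.2% and Psat1 of -5.92% in Stat5b KI cells, in place of -12.4% and -1.85% in mean RPKM. On this scale Stat5a KI cells kept 25% of the WT rise for Mthfd2, and Psph again rose more than in WT cells. For Psph the difference in change between Stat5a KI and WT cells did not pass (log2 difference 0.22, adjusted p = 0.521 in edgeR's test).

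The difference between KI and WT cells in the change from 0 to 24 hr was tested in each line. In the Stat5a line no member was called, where 1.59% of all genes were, and 3 passed on p alone, where 3.3% of all genes were lower. They were Mthfd2 (log2 difference -0.84, adjusted p = 0.000822), Psat1 (-0.75, adjusted p = 0.00666), and Shmt1 (-0.80, adjusted p = 0.0122) by edgeR. When replicate 1 of Stat5a KI at 0 hr was left out, 1 of these, Mthfd2, passed. In the Stat5b line 6 members were called, where 6.66% of all genes were called lower, and 8 passed on p alone, where 19.6% were lower. The log2 differences were -2.50 for Shmt1, -2.39 for Psat1, -1.98 for Mthfd2, -1.66 for Phgdh, -1.41 for Mthfd1, and -1.33 for Shmt2. Those for Psat1 and Mthfd2 include the higher level of Stat5b KI cells at 0 hr, with log2 fold changes against WT cells of 0.51 and 0.41. At 24 hr alone their log2 fold changes against WT cells were -1.88 and -1.58. Mthfd1l (-0.86) and Psph (-0.48) passed on p alone, Psph not without replicate 2 of the KI cells at 0 hr or replicate 3 of the WT cells at 24 hr. By the same test 11 of 11 genes of dividing cells were called lower for the Stat5b line (median -1.97) and 3 of 11 for the Stat5a line (median -0.65), and their part was not tested.

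**Figure D3:**
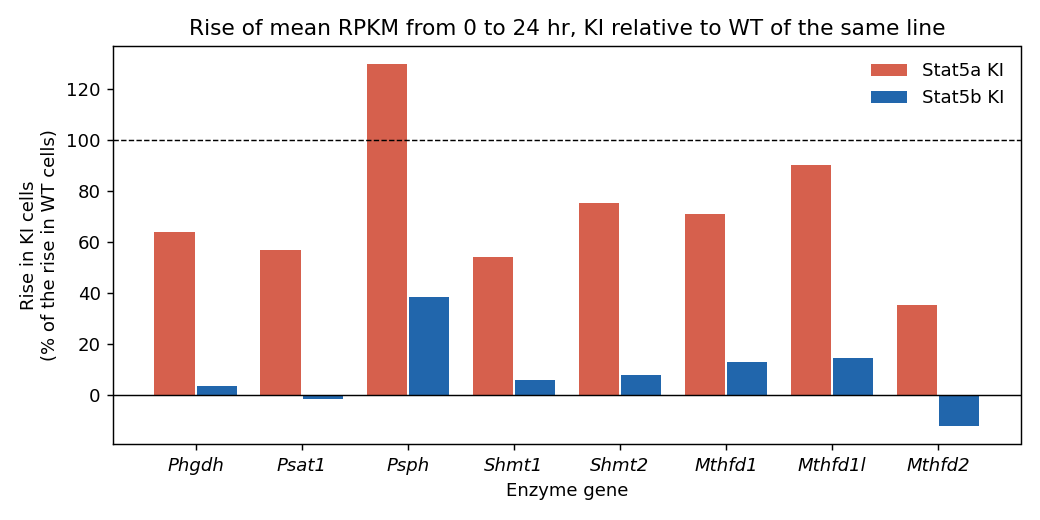
Rise of mean RPKM from 0 to 24 hr in KI cells as a percent of the rise in WT cells of the same line (y axis) for 8 enzymes (x axis), with 1 bar for each KI line and a dashed line at 100%. Stat5a KI bars run from 35.3% for Mthfd2 to 130% for Psph, and Stat5b KI bars from -12.4% for Mthfd2 to 38.4% for Psph. With TMM scaling the bar for Phgdh in Stat5b KI cells would be -1.97% in place of 3.33%, and that for Mthfd2 -20.2% in place of -12.4%.

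The balance between the serine hydroxymethyltransferases also shifted with IL-2. The ratio of Shmt1 to Shmt2 RPKM within a library was 0.105, 0.109, and 0.105 in Stat5a line WT cells at 0 hr and 0.223, 0.24, and 0.26 at 24 hr. In Stat5a KI cells at 24 hr it was 0.192, 0.163, and 0.169, and in Stat5b KI cells it was 0.125, 0.148, and 0.139, against 0.262, 0.252, and 0.252 in their WT cells. KI libraries lay below the WT libraries of their own line at 24 hr without overlap, and these ratios were not tested.

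**Figure D4:**
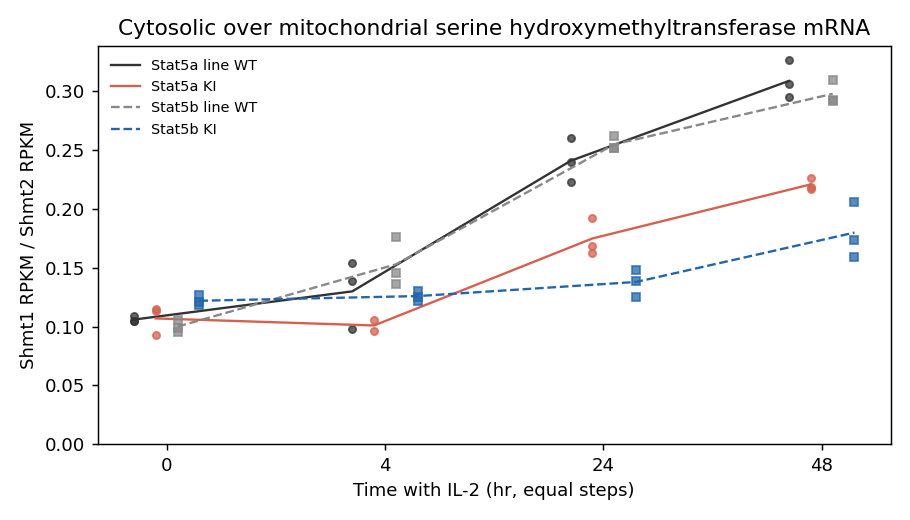
Ratio of Shmt1 RPKM to Shmt2 RPKM in each library (y axis) at 0, 4, 24, and 48 hr with IL-2 (x axis, equal steps), with points for libraries and lines for group means. WT cells of both lines rise from about the same ratio at 0 hr to means of 0.309 and 0.298 at 48 hr, and KI cells reach means of 0.221 and 0.18.

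At 48 hr the levels in WT cells had gone on rising, and the values of all members are a description. Phgdh was at 139.7, 156.5, and 145.01 RPKM in Stat5a line WT cells and at 87.8, 83.5, and 80.8 RPKM in Stat5a KI cells. For the Stat5b line Phgdh was at 157.2, 155.9, and 158.3 RPKM in WT cells and at 53.7, 54.1, and 43.4 RPKM in KI cells. Shmt1 was at 33.3, 40.7, and 38.5 RPKM in Stat5a line WT cells and at 16.2, 15.2, and 15.1 RPKM in Stat5a KI cells. For both genes every KI library lay below every WT library of its line. Over the 8 enzymes the log2 fold changes of KI against WT cells ran from -1.33 for Shmt1 to -0.32 for Psph in the Stat5a line and from -2.49 for Shmt1 to -0.77 for Psph in the Stat5b line. Psat1 was at 93.2, 99.2, and 89.8 RPKM in Stat5b line WT cells and at 22.9, 25.2, and 19.7 RPKM in Stat5b KI cells, which was above the KI libraries of 24 hr. Mean marker sums moved at 48 hr too, given here for WT and then KI cells. In the Stat5b line they were 1814 and 704.4 RPKM for dividing cells and 11.4 and 116.8 RPKM for B cells. Macrophage markers there were at 0.329 and 34.2 RPKM. In the Stat5a line dividing cells were at 1670 and 1093 RPKM and B cells at 25.8 and 102.6 RPKM. The part of these markers was not tested.

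Gldc and Cbs were detected at very low counts. Gldc encodes the decarboxylase of the glycine cleavage system, which releases carbon from glycine to folate in mitochondria. Its counts at 48 hr were 30, 23, and 65 reads in Stat5a line WT cells and 3, 1, and 2 reads in Stat5a KI cells. They were in the Stat5b line 33, 36, and 28 reads in WT cells and 2, 7, and 3 reads in KI cells. WT libraries at 48 hr stood apart from all others, since the remaining 41 libraries held 0 to 16 reads of Gldc, the most in Stat5b KI cells at 4 hr with 3, 16, and 12 reads. Cbs encodes the enzyme that condenses serine with homocysteine in transsulfuration. Its counts at 48 hr were 8, 12, and 14 reads against 6, 3, and 2 reads in the Stat5a line, and 11, 6, and 5 reads against 0, 0, and 0 reads in the Stat5b line. Of the other 41 libraries, 39 held 3 reads of Cbs or fewer. Cbs passed the filter on low counts through the 48 hr WT libraries of the Stat5a line, and Gldc through the 48 hr WT libraries of both lines and the 4 hr libraries of Stat5b KI cells, and a level under the floor does not show absence.

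Other genes of folate metabolism rose with IL-2, and fewer differed between genotypes. In the list of 15 genes of the folate cycle and folate transport, 5 were called higher at 24 hr in WT cells of each line, where 8.72% and 9.07% of all genes were. In KI cells at 24 hr 0 of 15 were called in the Stat5a line and 3 of 15 were called lower in the Stat5b line, where 1.24% and 5.77% of all genes were called lower, with a median log2 fold change of -0.31 over the list. Slc19a1, the reduced folate carrier, was at 15.1, 17.3, and 14.5 RPKM in Stat5b line WT cells and at 6.28, 5.83, and 6.17 RPKM in Stat5b KI cells. The libraries did not overlap, and the log2 fold change was -1.39. Gart, a purine synthesis enzyme that uses folate-bound carbon, was at 61.3, 64.7, and 62.7 RPKM in WT cells and at 29.0, 29.5, and 30.7 RPKM in Stat5b KI cells, also without overlap (log2 fold change -1.11).

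Over all genes at 24 hr, 3.21% were called higher and 1.24% lower in the Stat5a line, and 10.9% higher and 5.77% lower in the Stat5b line, and the counts of the following lists stand against these shares. Among the 3 other proteins of the glycine cleavage system, 1 was called lower in Stat5b KI cells and 0 in Stat5a KI cells. This was Gcsh, the carrier protein of the system, at 6.86, 7.1, and 6.91 RPKM in Stat5b KI cells and at 17.6, 18.5, and 19.1 RPKM in WT cells (log2 fold change -1.43). Of the 8 genes of the methionine cycle and transsulfuration 7 were tested, with 1 called higher in Stat5a KI cells and 1 higher and 1 lower in Stat5b KI cells, where 10.9% of all genes were called higher and 5.77% lower. On p alone 4 of 7 were lower in Stat5b KI cells, where 26.3% of all genes were, with a median log2 fold change of -0.52 over the list. Gnmt, which methylates glycine, was the higher one in both, with log2 fold changes of 1.36 and 2.11 on 22, 41, and 52 reads in Stat5b KI cells against 8, 8, and 13 reads in WT cells for the latter. Cth, which makes cysteine from cystathionine, was the lower one, at 42, 52, and 11 reads in WT cells and 3, 6, and 7 reads in Stat5b KI cells.

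Of the 8 genes of serine and glycine transport and breakdown 6 were tested. In the Stat5a line 1 was called lower and in the Stat5b line 2, where 1.24% and 5.77% of all genes were. On p alone 3 of 6 were lower in each line, where 9.01% and 26.3% of all genes were. In the Stat5b line 1 was higher on p alone. When replicate 1 of Stat5a KI at 24 hr was left out, 2 of 6 were called lower in the Stat5a line. Sfxn1, the mitochondrial serine carrier, was at 14.4, 15.8, and 14.3 RPKM in Stat5b KI cells and at 30.7, 30.7, and 32.1 RPKM in WT cells (log2 fold change -1.10). Slc1a4, a neutral amino acid carrier that takes up serine, had a log2 fold change of -1.82 in the Stat5b line. Slc6a9, a glycine transporter, was the one called in the Stat5a line, with a log2 fold change of -1.45. For both plasma membrane carriers the mean level was under 1 RPKM.

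ATF4 is a transcription factor known to act on Phgdh, Psat1, Shmt2, and Mthfd2, and 11 genes were listed for it and for its targets outside the pathway. In this list 1 gene was called lower in the Stat5a line, where 1.24% of all genes were. In the Stat5b line 1 was called higher and 1 lower, where 10.9% and 5.77% of all genes were. On p alone 6 of 11 were lower in Stat5b KI cells, where 26.3% of all genes were, with a median log2 fold change of -0.59 over the list. Before that, 4 of 11 were called higher in Stat5b KI cells at 0 hr and 4 of 11 at 4 hr, where 7.38% and 9.2% of all genes were called higher. Asns, which makes asparagine, was lower in both, at 1.4, 1.16, and 1.36 RPKM in Stat5b KI cells and 5.77, 10.8, and 4.06 RPKM in WT cells (log2 fold change -2.42). In the Stat5a line Asns was at 1.64, 0.725, and 0.763 RPKM in KI cells and 1.86, 2.98, and 4.86 RPKM in WT cells, with WT libraries spread widely (log2 fold change -1.70). Slc7a11, the cystine carrier, was higher in Stat5b KI cells, with a log2 fold change of 1.34. Atf4 mRNA itself fell by 1.14 on the log2 scale from 0 to 24 hr in Stat5a line WT cells. In Stat5b line WT cells its log2 fold change was -0.93, which passed on p but not at 2-fold. The log2 fold change of Atf4 in KI against WT cells at 24 hr was -0.13 for the Stat5a and -0.59 for the Stat5b line.

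Markers of division and of other cell types moved with the comparison at 24 hr. The summed level of 11 genes of dividing cells, of which Pcna was the most abundant, was 952.3, 1073, and 1129 RPKM in Stat5b line WT cells and 356.3, 421.4, and 355.8 RPKM in Stat5b KI cells. In the Stat5a line the sums were 810.7, 930.8, and 806.7 RPKM in WT cells and 623.2, 596.2, and 550.5 RPKM in KI cells. All 11 were called lower in Stat5b KI cells, where 5.77% of all genes were, and 1 of 11 in Stat5a KI cells, where 1.24% were. On p alone 11 of 11 were lower in Stat5a KI cells, where 9.01% of all genes were, and 3 of 11 were called when replicate 1 of these KI cells was left out. Their part in the results for the enzymes was not tested.

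The 6 B cell markers, led by Cd79a, were all called higher in KI cells of both lines at 24 hr. They summed to 201.5, 161.7, and 198.8 RPKM in Stat5a KI cells and to 80, 70.3, and 23.4 RPKM in WT cells. Their sums in the Stat5b line were 161.1, 158.5, and 183 RPKM in KI cells and 24.6, 22.6, and 29.4 RPKM in WT cells. KI libraries were higher without overlap. All 7 macrophage markers tested, led by C1qc, were called higher in both lines. Their sums were 24.8, 15.6, and 19.1 RPKM in Stat5b KI cells and 1.92, 1.07, and 1.78 RPKM in WT cells, and 34.6, 6.58, and 5.04 RPKM in Stat5a KI cells and 4.96, 4.07, and 1.22 RPKM in WT cells. Replicate 1 held most of the Stat5a KI signal, and without it the mean sum was 5.81 in place of 15.4 RPKM and 0 of 7 were called by edgeR, with 0 passing on p alone. The neutrophil and monocyte markers, led by Lyz2, had 1 of 4 called higher in the Stat5a line and 4 of 4 in the Stat5b line, with mean sums of 27.2 against 6.19 RPKM and 40.7 against 4.82 RPKM. The 5 erythroid markers, led by Hba-a1, summed to a mean of 82.8 RPKM in Stat5b KI cells and 7.3 RPKM in WT cells, with 4 of 5 called higher, and to 10.9 and 9.69 RPKM in the Stat5a line, with 0 of 5 called. The 3 CD4 T cell markers, led by Cd4, had 2 called higher for the Stat5a and 3 for the Stat5b line, and the 4 NK cell markers, led by Eomes, had 2 called lower in each. Not all 4 went down, since Ncr1 had a log2 fold change of 0.44 in the Stat5a line and was not called. In the Stat5b line 1 of the 4 was higher on p alone. The study reports that IL-2 induced EOMES protein in WT CD8+ T cells and less in Stat5a KI cells, so Eomes is not particular to NK cells. The 6 CD8 T cell markers, led by Thy1, had none called in either line at 24 hr in edgeR's test, with 1 passing on p alone for the Stat5a and 2 for the Stat5b line. The part of these markers in the results for the enzymes was not tested.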

How the data were processed

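For each of 48 libraries the authors deposited a raw read count and an RPKM value for each RefSeq transcript on mm10, 31682 transcripts of 23992 symbols. The submitters' processing notes name TopHat2 2.0.11, Bowtie2 2.2.6, SAMtools 0.1.8, bedtools 2.25.0, and edgeR. The counting program and use of strand are not given in the sources used here, and annotated genes overlap the spans of Shmt2 (Ndufa4l2), Psph (Cct6a), Mthfd1, Mthfd1l, and Gldc, so reads of overlapping exons could be shared. The deposited counts were tested without change, and the deposited RPKM values are printed as levels. Isoforms can share reads, so the longest transcript stood for a gene. No 2 libraries of a group agreed within sampling noise (lowest chi-square per gene 4.834 over 48 pairs).

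Counts of 47 libraries were fitted in R 4.3.3 with edgeR 4.0.16 (TMM, filterByExpr with a minimum count of 10, glmQLFit, glmQLFTest) with 1 mean for each of 16 groups, and 15566 genes were tested. The step was tested on simulated data for KI against WT cells of the Stat5b line at 24 hr over 14867 genes, where 97 of 100 genes changed by 1.5 on the log2 scale were recovered. Of the unchanged genes 5 were called. The changed genes were drawn from genes above a minimum mean count, so recovery at counts as low as those of Gldc and Cbs was not tested. The genes named were the 10 members, every gene of the pathway lists called at 24 hr in KI against WT cells in either line (at most 6 a list), and the most abundant marker of each cell type. Alb, Ttr, and Atf4 fell outside this rule and were named after their values were seen. The values of 1 gene that the rule names are not reported here. The members and lists were chosen with earlier results of these data known.

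Results were recomputed with edgeR on DESeq2 size factors, with DESeq2 1.42.0, with no filter on low counts, all 48 libraries, a fit of the libraries compared, the transcript with most reads, no fold threshold, the replicate number as a block, and each library left out in turn. The marker lists without replicate 1 of Stat5a KI cells at 24 hr were added after seeing the data. Same-numbered libraries deviated together, with each correlation over 0.1, in Stat5a line WT cells at 24 against 0 hr (0.206, 0.273, and 0.419) and in no other comparison. The ChIP-seq and proteome of the study were not analysed here. Figures were drawn with matplotlib 3.10.9.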

Additional observations from a re-analysis of the deposited data

Results flagged for a closer look

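Results are listed here because the effect of 1 group differed from that of another in a test of the difference itself, by edgeR's quasi-likelihood test with an adjusted p of at most 0.05. The KI effect at 24 hr, Stat5b line minus Stat5a line on the log2 scale, was -1.54 for Shmt1, -1.12 for Shmt2, -1.11 for Mthfd1, -0.80 for Mthfd1l, -0.88 for Mthfd2, -1.09 for Phgdh, -1.32 for Psat1, and -0.51 for Psph. The change from 0 to 24 hr in KI cells minus that in WT cells of the Stat5a line was -0.80 for Shmt1, -0.84 for Mthfd2, and -0.75 for Psat1. In the Stat5b line the same difference was -2.50 for Shmt1, -1.33 for Shmt2, -1.41 for Mthfd1, -0.86 for Mthfd1l, -1.98 for Mthfd2, -1.66 for Phgdh, -2.39 for Psat1, and -0.48 for Psph. No rule for single outlying samples in groups of 3 libraries was applied in making this list. Each library was left out in turn in separate fits.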

How the results depend on the processing

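The counts of members called at 24 hr in WT cells of both lines and in Stat5b KI against WT cells changed by no more than 1.5 times under any alternative run, and no log2 fold change of a called member changed sign. The call of Gldc at 4 hr in Stat5b line WT cells was lost, leaving 0 members called, with no filter on low counts, the replicate block, a fit of the libraries compared, or DESeq2. With all 48 libraries, which takes in the library with 5.675% of its mapped reads on the longest transcripts, 1 member was called in Stat5a KI against WT cells at 4 hr. Without a fold threshold the counts were 6 and 6 in WT cells at 4 hr of the Stat5a and Stat5b lines, 1 and 1 in KI against WT cells at 4 hr, 2 at 0 hr for the Stat5b line, 6 at 24 hr for the Stat5a line, 3 for the difference in the change from 0 to 24 hr in the Stat5a line, and 8 for the difference between the lines. With each library left out in turn, the counts ranged from 0 to 1 in WT cells at 4 hr of each line and from 0 to 1 in Stat5b KI against WT cells at 4 hr. The difference between the lines for Shmt2 was -0.9971 without replicate 2 of the Stat5b line WT cells at 24 hr, just under 2-fold. The replicate block changed no other call. Causes of these changes were not tested. Depth limits Gldc and Cbs outside the WT libraries of 48 hr. Of the other 41 libraries, 33 for Gldc and 39 for Cbs held no more than the floor of 3 reads.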
